A study of Mus musculus with 9 samples.

Results

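The neuronal cytoskeleton of the developing mouse cortex was followed through 10 genes: the tubulins Tubb3, Tubb2b and Tuba1a, the microtubule-associated proteins Dcx, Map1b, Map2 and Mapt, the stathmins Stmn1 and Stmn2, and the growth cone gene Gap43. They were taken from a list of symbols matched to the Ensembl identifiers of the count table, and are 10 of its 57010 genes. All 10 were among the 13680 genes that were tested, those above 10 reads in each embryo. Cortical tissue had been microdissected from single embryos at E12.5, with one poly(A) RNA library per embryo. The 3 control embryos (Ctrl) carry the genotype label WT. The 3 cKO embryos carry Emx1-Cre and are Cnot3 lox/lox. The 3 dcKO embryos also carry Emx1-Cre and are Cnot3 lox/lox and Trp53 lox/lox. Emx1-Cre acts in radial glial cells (RGCs) of the dorsal telencephalon and in the intermediate progenitors and neurons they produce, so blood cells, vessels and meninges in the dissected tissue keep both genes. Cnot3 encodes a subunit of the CCR4-NOT complex, which shortens poly(A) tails and so starts mRNA decay, and Trp53 encodes the p53 transcription factor. The comparisons ask how mRNA of the neuronal cytoskeleton stands when Cnot3 is removed, and when p53 is removed with it.

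Microtubules are hollow polymers of α- and β-tubulin. In a newborn cortical neuron they move the nucleus during migration and fill the growing axon, and the neuron supplies them with tubulin isotypes that progenitors make little of, Tubb3 above all. Microtubule-associated proteins bind along the polymer: doublecortin (Dcx) stiffens microtubules in migrating neurons, Map1b acts in growing axons, Map2 is the main such protein of dendrites, and Mapt encodes tau, that of axons. Stathmins act the other way, binding free tubulin dimers and promoting microtubule disassembly. Stmn1 is made in dividing progenitors as well as in neurons, whereas Stmn2 (SCG10) is neuronal and sits in growth cones, as does GAP-43, a membrane protein of the growing axon tip.

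The tubulin members belong to families whose coding sequences are almost the same, which limits what a read can tell. The first 90 coding bases of 3 β-tubulin genes are shown from the GENCODE M21 transcripts (GRCm38), with capitals at bases that differ from Tubb2b:
Tubb2b: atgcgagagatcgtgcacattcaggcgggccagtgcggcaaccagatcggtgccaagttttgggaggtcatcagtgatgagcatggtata
Tubb2a: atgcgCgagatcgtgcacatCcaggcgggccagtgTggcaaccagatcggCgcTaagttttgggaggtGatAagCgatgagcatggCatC
Tubb3: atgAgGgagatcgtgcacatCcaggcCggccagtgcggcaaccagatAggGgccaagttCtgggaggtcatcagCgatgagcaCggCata
Tubb2a and Tubb3 each differed from Tubb2b at 10 of the 90. For α-tubulin, Tuba1a and Tuba1b were identical at 98.3% of their 1353 coding positions. Of all windows of 150 bases (one read) in the Tuba1a transcript, 54.7% also occurred in a transcript of another gene, among them Tuba1b, Tuba1c and several pseudogenes. The share was 20.1% for Tubb2b (Tubb2a and a pseudogene of it) and 16.6% for Stmn1 (the pseudogene Gm11223), and 0% for the other 7 genes. How reads that fit several genes were counted is not given in the sources used here, so the values of Tuba1a, and in part of Tubb2b and Stmn1, are uncertain to that extent. The same holds for Tuba1b (57.9% of windows), Tuba1c (46.7%) and Tubb2a (27.9%), and so for the shares of tubulin mRNA given from them.

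Base composition also separates the genes. The first 20 codons of 3 members are shown because the dcKO libraries differed from one another along GC content. Capitals mark a G or C at the third codon position:
Tubb3: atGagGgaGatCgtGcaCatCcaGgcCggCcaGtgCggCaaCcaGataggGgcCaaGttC
Tubb2b: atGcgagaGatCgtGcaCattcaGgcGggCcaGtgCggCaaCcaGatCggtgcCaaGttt
Map2: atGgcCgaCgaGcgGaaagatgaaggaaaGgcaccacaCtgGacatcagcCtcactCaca
Over the whole coding sequence, a G or C ended 78.9% of codons in Tubb3 and 75.1% in Tubb2b, above 97.0% and 92.9% of the tested coding genes. It ended 52.5% in Dcx and 42.9% in Map2, above 28.5% and 10.05% of them. By GC content of the whole transcript, Tubb3 (57.9%) and Mapt (58.8%) fell in the highest quartile of tested genes, Dcx (40.6%) in the lowest, and the other 7 between. The genes lie apart in the genome (GRCm38), for example Tubb3 at chr8:123411424-123422015 on the plus strand, Tubb2b at chr13:34126748-34130466 on the minus strand, and Dcx at chrX:143855842-143933311 on the minus strand.

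Between 21193798 and 45073349 reads were counted per embryo. Levels are given as CPM, reads per 1000000 reads on the tested genes after TMM scaling. The targeted genes read lower in the mutants: Cnot3 stood at 98.2 to 117 CPM in Ctrl and 14.6 to 17.3 CPM in cKO. Across dcKO embryos it was 7.33, 48.2 and 19.0 CPM. Trp53 was 215 to 254 CPM in Ctrl, 164 to 167 CPM in cKO, and 15.1, 110 and 20.6 CPM in dcKO. The library labelled dcKO 2 therefore held more of both deleted genes than dcKO 1 and dcKO 3, although less than any Ctrl library, and results for the 10 genes in dcKO are given with and without it. Embryos of one group varied by a median coefficient of variation of 10.5% (Ctrl), 17.1% (cKO) and 47.0% (dcKO) over the 10 genes. The medians over all tested genes were 11.2%, 11.2% and 36.4%.

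Among the 10 genes, Tuba1a had the highest mRNA level in control cortex, read from whole tissue and not from neurons alone. Its length-scaled level (CPM per kb of exon) was 2533 ± 126 (SD, n = 3), and by CPM it ranked 6 among all tested genes. Tubb2b followed at 915 ± 165, Stmn1 at 693 ± 29.5, Tubb3 at 343 ± 78.4 and Map1b at 77.4 ± 10.1 CPM per kb. Next came Gap43 at 26.8 ± 3.68, Map2 at 24.4 ± 1.09, Stmn2 at 17.2 ± 1.38, Dcx at 14.4 ± 0.216 and Mapt at 4.59 ± 0.736 CPM per kb. The ranges of neighbours in this order did not overlap, except those of Gap43 and Map2. In cKO the order was the same, again with Gap43 and Map2 overlapping. In dcKO, where embryos differed more, 6 of the 9 pairs of neighbours overlapped. The order rests on exon lengths: per kb of the longest coding transcript instead, Stmn1 (1256 CPM per kb in Ctrl) stood above Tubb2b (962), and Map2 (64.0) and Stmn2 (46.5) above Gap43 (28.8).

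**Figure D1:**
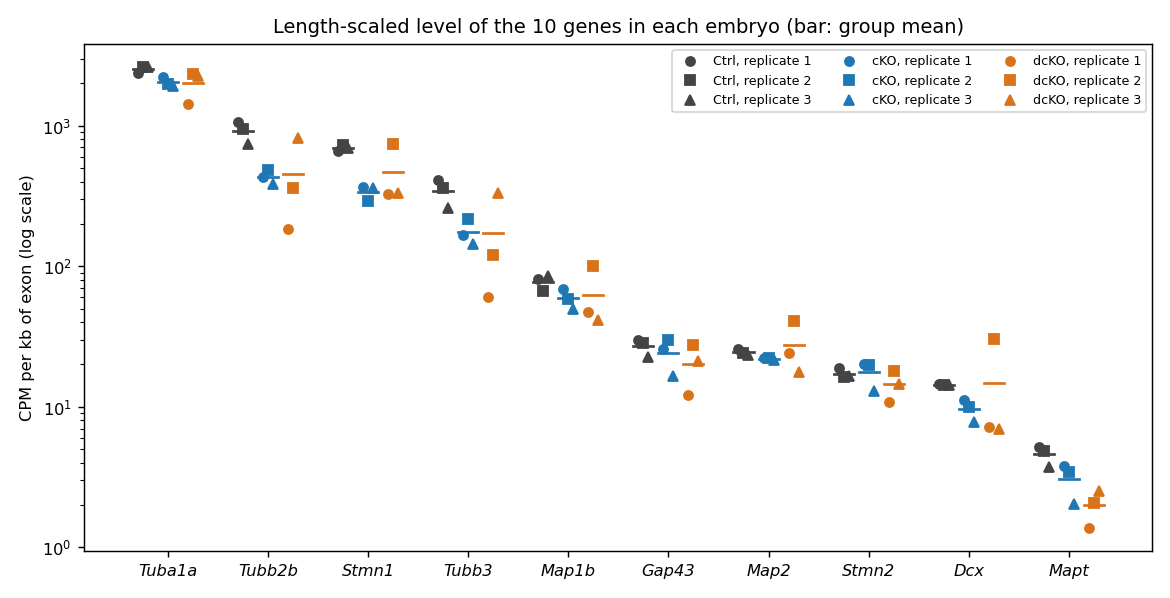
Length-scaled level (CPM per kb of exon, log axis) of the 10 genes in each of the 9 embryos, ordered by the Ctrl mean; symbols mark replicates and bars the group means. The Ctrl means run from 4.59 for Mapt to 2533 for Tuba1a, and the dcKO embryos spread most widely for Dcx, Tubb3 and Tubb2b.

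When Cnot3 was removed, Tubb2b, Stmn1 and Tubb3 had the lowest log2 fold changes, although after a GC correction Tubb3 (-0.50) stood above Dcx (-0.77) and Map1b (-0.54). Tubb2b read 2441, 2160 and 1693 CPM in Ctrl and 995, 1111 and 878 CPM in cKO. All 3 cKO embryos lay below all 3 Ctrl embryos, and the log2 fold change was -1.08 ± 0.43 (SE). Under edgeR's quasi-likelihood test in one model of 9 embryos this did not pass (adjusted p = 0.147). Tubb3, the neuron-specific β-tubulin, read 769, 673 and 481 CPM in Ctrl and 313, 408 and 268 CPM in cKO. Again no cKO embryo reached a Ctrl embryo, with a log2 fold change of -0.96 ± 0.50 (edgeR adjusted p = 0.245). Tuba1a read 4304, 4688 and 4709 CPM in Ctrl and 3997, 3588 and 3444 CPM in cKO. These groups were also apart, but the difference was smaller, at -0.31 ± 0.23 on the log2 scale (edgeR adjusted p = 0.399).

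The stathmins parted from each other. Stmn1 read 1279, 1391 and 1323 CPM in Ctrl and 706, 563 and 691 CPM in cKO, with all cKO embryos below all Ctrl embryos. Its log2 fold change was -1.03 ± 0.30 (edgeR adjusted p = 0.0723). DESeq2, the tool the study names, called it lower on the same 9 embryos (-1.04 ± 0.33, DESeq2 adjusted p = 0.0155). Leaving out any 1 of the 3 Ctrl or the 3 cKO embryos ended that call, with DESeq2 adjusted p-values from 0.0669 to 0.109, whereas without dcKO 1, the library labelled dcKO 2 or dcKO 3 the value was 0.00458, 7.97e-10 or 0.000252. Stmn2 read 105, 91.2 and 92.8 CPM in Ctrl and 112, 111 and 72.5 CPM in cKO. Among the cKO embryos, 2 lay above all Ctrl embryos and 1 below, and the log2 fold change was 0.03 ± 0.23, an interval from -0.42 to 0.48.

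None of the 4 microtubule-associated proteins passed in cKO. Dcx was within 180 to 185 CPM in the 3 Ctrl embryos and at 140, 126 and 99.2 CPM in cKO, where every embryo was lower (log2 fold change -0.58 ± 0.49, edgeR adjusted p = 0.474). Map2 read 421, 394 and 387 CPM in Ctrl against 363, 367 and 356 CPM in cKO. The groups did not overlap, yet the log2 fold change was -0.14 ± 0.26, and it ran from -0.29 to -0.11 over the alternative fits. Map1b read 1274, 1049 and 1357 CPM in Ctrl and 1098, 926 and 781 CPM in cKO, and the groups overlapped. Mapt read 38.7, 36.7 and 28.3 CPM in Ctrl and 28.4, 25.7 and 15.2 CPM in cKO, with cKO 1 just above the lowest Ctrl embryo. The log2 fold changes were -0.39 ± 0.32 for Map1b and -0.58 ± 0.31 for Mapt. Gap43 read 45.1, 43.0 and 34.5 CPM in Ctrl and 38.9, 45.3 and 25.1 CPM in cKO, from above the highest Ctrl embryo to below the lowest (log2 fold change -0.17 ± 0.32).

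Counted together, edgeR called 0 of the 10 genes lower in cKO, as it called 0% of all tested genes lower, at an adjusted p-value under 0.05 and a log2 fold change beyond 1. Before adjustment, 2 were lower at p under 0.05 (Stmn1 and Tubb2b), against 11.7% of all tested genes. DESeq2 called 1 lower (Stmn1), against 3.87% of all tested genes. With only the 6 Ctrl and cKO embryos in edgeR's model, so that the spread of the dcKO embryos did not enter, 2 were called lower, against 5.94% of all tested genes: Stmn1 (adjusted p = 6.24e-05) and Tubb2b (adjusted p = 0.000221). In that fit Tubb3 had an adjusted p of 0.00183 but a log2 fold change of -0.96, short of the cutoff. Dcx (edgeR adjusted p = 0.00251), Tuba1a (0.0197), Map1b (0.0344) and Mapt (0.0493) were likewise under 0.05 there and short of the fold cutoff. Stmn1 was also the 1 gene called lower by edgeR with no filter (1.59% of all genes tested in that fit), after a GC correction (1.50%), without dcKO 1 (2.93%) and without the library labelled dcKO 2 (2.72%). Stmn1 and Tubb2b were called without dcKO 3 (5.49%), and limma voom with sample quality weights called these and Tubb3 (6.66%). For 6 genes (Dcx, Map2, Stmn1, Tuba1a, Tubb2b and Tubb3) all cKO embryos lay below all Ctrl embryos, against 28.0% of all tested genes, and for 0 they lay above, against 29.2%. The median log2 fold change of the 10 genes was -0.48, and that of all tested genes 0.01. RNA from whole tissue cannot tell fewer neurons apart from less of these mRNAs per neuron.

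**Figure D2:**
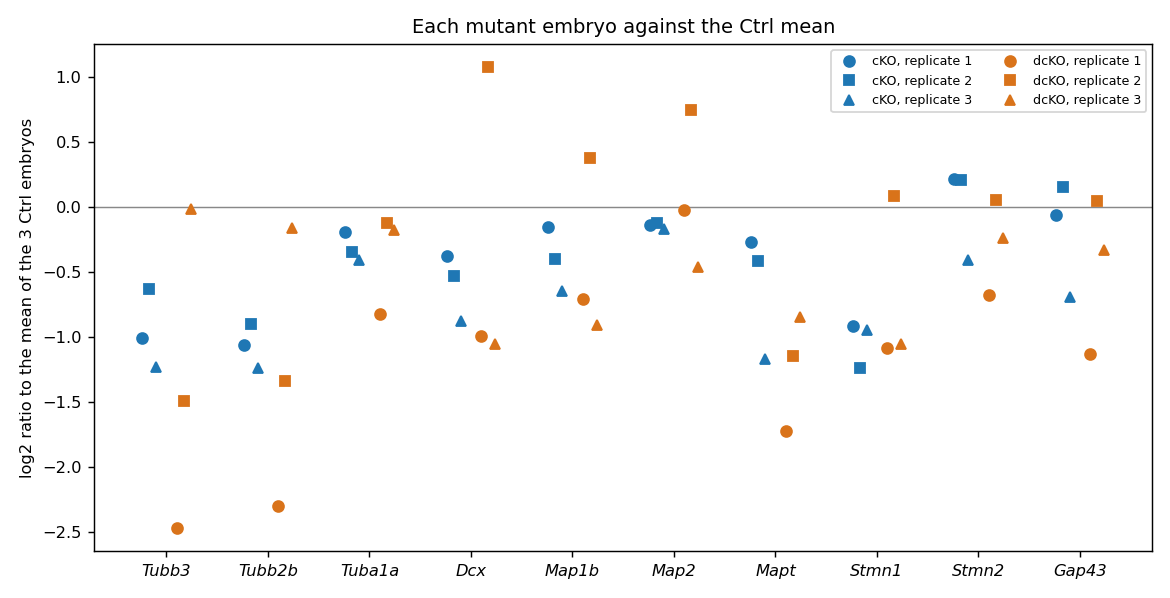
Log2 ratio of each mutant embryo to the mean of the 3 Ctrl embryos, for each of the 10 genes; color marks the genotype and the symbol the replicate. The 3 cKO embryos sit below 0 for Tubb3, Tubb2b and Stmn1, while dcKO 3 is near 0 for Tubb3 and the library labelled dcKO 2 is above 0 for Dcx, Map1b and Map2.

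In dcKO the 3 embryos took different courses, gene by gene. For the β-tubulins, dcKO 3 was the one apart. Tubb3 read 114, 223 and 624 CPM in dcKO 1, 2 and 3, and Tubb2b read 421, 822 and 1862 CPM. The first 2 libraries were below every Ctrl and every cKO embryo, and dcKO 3 was within the Ctrl range for both genes. The log2 fold changes against Ctrl were -1.0 ± 0.50 for Tubb3 (edgeR adjusted p = 0.211) and -1.02 ± 0.43 for Tubb2b (edgeR adjusted p = 0.153). Without dcKO 3 they were -1.93 ± 0.31 for Tubb3 (edgeR adjusted p = 0.000906) and -1.76 ± 0.28 for Tubb2b (edgeR adjusted p = 0.000807), and both were called lower. Without the library labelled dcKO 2 they were -0.80 ± 0.57 and -0.88 ± 0.50, and neither was. Tuba1a read 2577, 4195 and 4043 CPM, all below every Ctrl embryo, with a log2 fold change of -0.34 ± 0.23 (edgeR adjusted p = 0.331), -0.46 ± 0.21 without the library labelled dcKO 2 and -0.15 without dcKO 1.

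For Dcx, Map1b, Map2 and Stmn1, the library labelled dcKO 2 was the one apart. Dcx read 91.3, 385 and 87.6 CPM in dcKO 1, 2 and 3, so that that library was above every Ctrl embryo and the other two below every one. Stmn1 read 627, 1413 and 643 CPM. The library labelled dcKO 2 again lay above the highest Ctrl embryo, and the other two lay within the range of cKO. Map1b showed the same split at 748, 1587 and 652 CPM, as did Map2 at 395, 674 and 292 CPM, where dcKO 1 was within the Ctrl range. Over all 3 libraries the log2 fold changes were 0.05 ± 0.49 for Dcx, -0.57 ± 0.30 for Stmn1, -0.30 ± 0.32 for Map1b and 0.18 ± 0.26 for Map2, and none passed. Without the library labelled dcKO 2, Dcx was called lower (-1.02 ± 0.16, edgeR adjusted p = 0.00644), as was Stmn1 (-1.07 ± 0.15, edgeR adjusted p = 0.00479). Map1b then had an adjusted p of 0.0229 at a log2 fold change of -0.81, within the fold cutoff, and Map2 remained short of it at -0.22 ± 0.15.

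Mapt was lower in all 3 dcKO libraries. It read 10.4, 15.5 and 19.1 CPM, below every Ctrl embryo, with a log2 fold change of -1.21 ± 0.31 (edgeR adjusted p = 0.0547). DESeq2 called it lower (-1.24 ± 0.32, DESeq2 adjusted p = 0.00321). That call was lost without Ctrl 1 or Ctrl 2 (DESeq2 adjusted p = 0.0566 and 0.0514) and was made in the other 7 fits that left out 1 embryo. In edgeR it was called without the library labelled dcKO 2 (-1.23, adjusted p = 0.0417) and without dcKO 3 (-1.42, adjusted p = 0.00343). Stmn2 read 60.4, 100 and 81.8 CPM in dcKO and Gap43 18.5, 41.9 and 32.3 CPM. Both had 1 library within the Ctrl range and 2 below it, and their log2 fold changes were -0.26 ± 0.23 and -0.40 ± 0.32. They were -0.44 ± 0.22 and -0.69 ± 0.31 without the library labelled dcKO 2 and -0.086 and -0.14 without dcKO 1, and neither was called.

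Of the 10 genes, edgeR called 0 lower in dcKO, against 0% of all tested genes, and 2 were lower at an unadjusted p-value under 0.05 (Mapt and Tubb2b), against 11.2%. DESeq2 called 1 lower (Mapt), against 3.79% of all tested genes. All 3 dcKO libraries lay below all Ctrl embryos for 2 genes (Mapt and Tuba1a), against 11.2% of all tested genes, and above for 0, against 15.6%. Without the library labelled dcKO 2, 3 genes were called lower (Dcx, Mapt and Stmn1), by edgeR against 2.56% of all tested genes and by DESeq2 against 4.42%. Without dcKO 3, edgeR called 3 lower as well (Mapt, Tubb2b and Tubb3), against 15.3% of all tested genes. With all 3 libraries, edgeR called Mapt with no filter (1.41% of all genes tested in that fit) and 0 genes after a GC correction (0.361%), and limma voom called 5 (Gap43, Mapt, Stmn1, Tubb2b and Tubb3), against 15.9%. Limma weighted dcKO 1 at 1.19, the library labelled dcKO 2 at 0.125 and dcKO 3 at 0.112, so its dcKO values rest mostly on dcKO 1. Without dcKO 1, edgeR called 0 of the 10, so that Mapt was not called either, against 0% of all tested genes. Which cytoskeletal genes were called in dcKO depended on which library was left out. A GC correction took Mapt from -1.21 to -0.32 (edgeR adjusted p = 0.508). The median log2 fold change of the 10 genes was -0.37, and that of all tested genes 0.11. The median of the 10 was -0.80 without the library labelled dcKO 2 and -0.14 without dcKO 1.

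**Figure D3:**
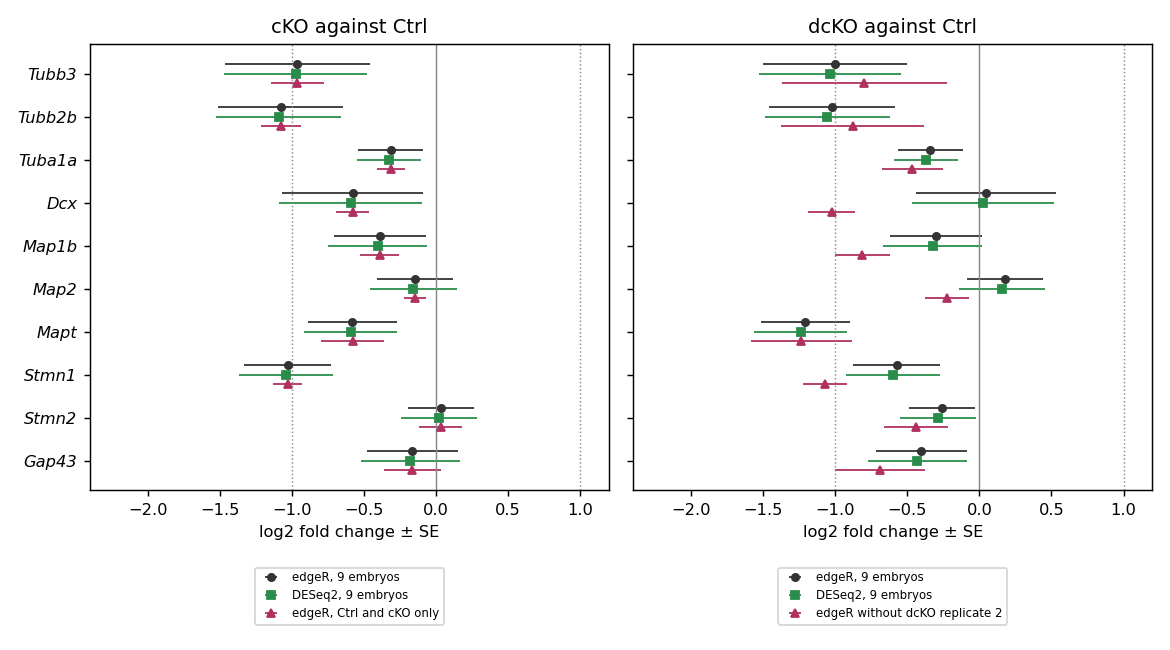
Log2 fold change ± SE of each gene in cKO (left) and dcKO (right) against Ctrl, from edgeR and DESeq2 on 9 embryos and from an edgeR fit with fewer embryos; dotted lines mark the fold cutoff. Dropping the dcKO embryos narrows the cKO errors (Stmn1 from 0.30 to 0.10), and dropping the library labelled dcKO 2 moves Dcx in dcKO from 0.05 to -1.02.

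Taken embryo by embryo, 6, 8 and 10 of the 10 genes were below every Ctrl embryo in cKO 1, 2 and 3, against 37.9% to 39.3% of all tested genes. The count was 9 in dcKO 1, 4 in the library labelled dcKO 2 and 8 in dcKO 3, against 36.2% to 42.3% of all tested genes. That library held 4 of the 10 above every Ctrl embryo (Dcx, Map1b, Map2 and Stmn1), against 46.2% of all tested genes. The dcKO libraries also differed along GC content over all genes. In dcKO 1 and the library labelled dcKO 2 the quartile of tested genes with the least GC stood 0.58 and 0.84 above Ctrl on the log2 scale and the quartile with the most GC 1.07 and 1.16 below (medians of -1.07 and -1.16). In dcKO 3 these medians were -0.10 and 0.19. In cKO the medians of the GC-rich quartile were -0.46, -0.29 and -0.51. The GC-rich Tubb3 stood on the same side as its quartile in dcKO 1 and the library labelled dcKO 2, at -2.47 and -1.49, and was at -0.01 in dcKO 3. Mapt, the other member in that quartile, stood at -1.72, -1.14 and -0.84, below Ctrl in dcKO 3 as well. The GC-poor Dcx was above Ctrl, as its quartile was, in the library labelled dcKO 2, at 1.08, and stood at -0.99 in dcKO 1 and -1.05 in dcKO 3. After a loess correction for GC content the log2 fold change of Tubb3 was -0.50 in cKO and -0.52 in dcKO, that of Mapt -0.04 and -0.32, and that of Dcx -0.77 and -0.63. Those of Tubb2b (-1.11 and -1.03) and Stmn1 (-1.06 and -0.54) moved little, and Stmn1 in cKO then passed (edgeR adjusted p = 0.0435). In dcKO, Tuba1a went from -0.34 to -0.13, Map1b from -0.30 to -0.55 and Stmn2 from -0.26 to -0.54. The part of GC content in the differences was not tested.

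**Figure D4:**
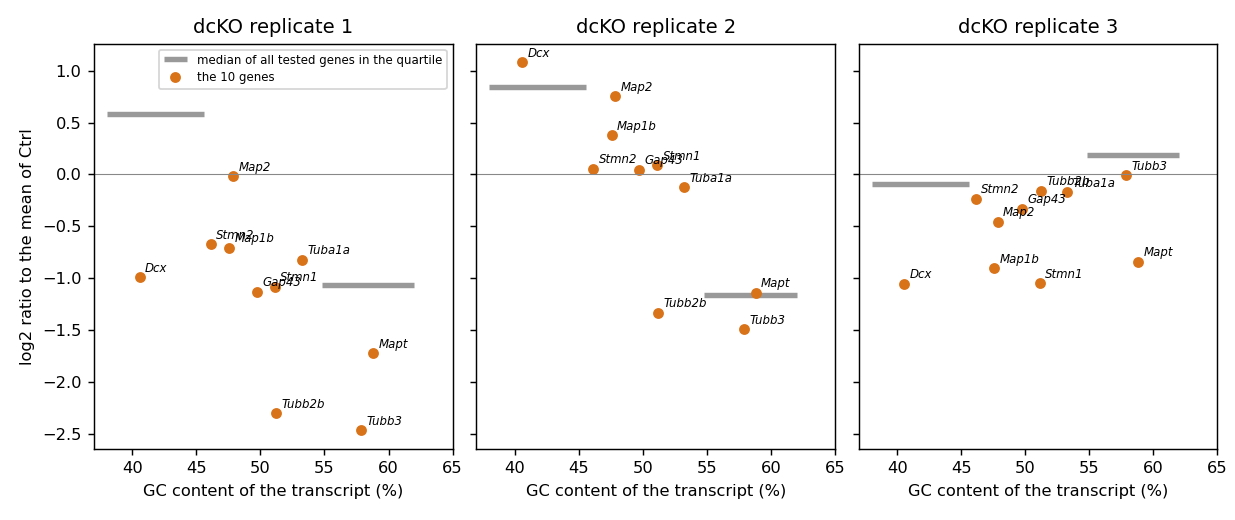
Log2 ratio to the Ctrl mean of the 10 genes in each dcKO library against the GC content of the transcript (%); gray bars are medians of all tested genes in the lowest and the highest GC quartile. The gray bars step down from 0.58 to -1.07 in dcKO 1 and from 0.84 to -1.16 in the library labelled dcKO 2, and rise in dcKO 3, where Tubb3 is at -0.01.

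Between dcKO and cKO, edgeR called 0 of the 10 genes lower, against 0.0146% of all tested genes, and DESeq2 called 0 in either direction, against 0.351% lower and 0.0292% higher. Before adjustment 0 reached p under 0.05 in either direction in edgeR (Mapt did, lower, in DESeq2), against 2.38% of all tested genes lower and 2.05% higher. The groups were apart for 0 genes, against 3.63% lower and 2.62% higher. The difference reached furthest for Mapt, at -0.63 ± 0.31, and for Dcx, at 0.62 ± 0.49. That of Dcx was -0.45 without the library labelled dcKO 2, and that of Stmn1 went from 0.45 ± 0.30 to -0.04. The 95% intervals, set by the SE alone and so narrower than the test allows, ran from -1.23 to -0.03 for Mapt, from -0.33 to 1.58 for Dcx and from -1.01 to 0.93 for Tubb3. Tubb3 went from -0.04 ± 0.50 to -0.97 ± 0.30 without dcKO 3 (edgeR adjusted p = 0.0389), short of the fold cutoff, and to 0.16 ± 0.55 without the library labelled dcKO 2.

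The pools of tubulin mRNA were smaller in cKO than in Ctrl. Summed over 5 α-tubulin genes, the level was 5157, 5536 and 5344 CPM per kb in Ctrl, 3997, 3719 and 3655 in cKO, and 2489, 3808 and 4555 in dcKO. Both mutants lay wholly below Ctrl. Over 7 β-tubulin genes it was 3652, 3273 and 2648 CPM per kb in Ctrl, 1723, 1879 and 1596 in cKO, and 841, 1306 and 2843 in dcKO. Here cKO lay below Ctrl, whereas dcKO 3 was within it. Within the α pool, Tuba1a made up 46.3%, 47.0% and 48.9% in Ctrl and 55.5%, 53.5% and 52.3% in cKO, without overlap, and 57.4%, 61.1% and 49.2% in dcKO. The share of Tuba1b was 24.7% to 28.0% in Ctrl and 20% to 22.4% in cKO. Within the β pool, Tubb2b made up 29.1%, 28.8% and 27.9% in Ctrl and 25.2%, 25.8% and 24.0% in cKO, again without overlap. The shares of Tubb3 overlapped, with 9.72% to 11.3% in Ctrl, 8.98% to 11.6% in cKO and 7.23% to 11.8% in dcKO. Tubb5, the β-tubulin of dividing cells as well as neurons, was the most abundant, at 44.2% ± 3.00 in Ctrl and 47.3% ± 2.16 in cKO (SD, n = 3). The level of Stmn2 was 2.83%, 2.25% and 2.41% of that of Stmn1 in Ctrl and 5.44%, 6.78% and 3.60% in cKO, with no overlap, and 3.30%, 2.43% and 4.36% in dcKO. These shares are descriptions with no test, and 3 embryos a group limit them.

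**Figure D5:**
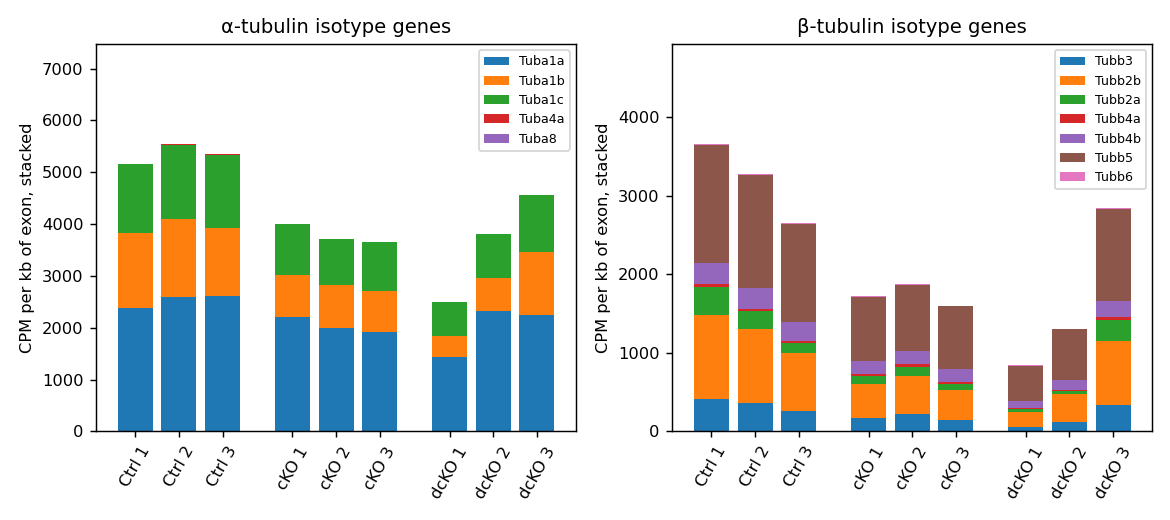
Stacked length-scaled levels (CPM per kb of exon) of 5 α-tubulin genes (left) and 7 β-tubulin genes (right) in each embryo. The β-tubulin stack is 2648 to 3652 in Ctrl and 1596 to 1879 in cKO, and in dcKO it runs from 841 to 2843.

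A wider list of 86 cytoskeletal genes, 82 of them tested, was read beside the 10. In cKO, edgeR called 0 of the 82, and DESeq2 called 4 lower and 2 higher, against 3.87% and 4.94% of all tested genes. With only the 6 Ctrl and cKO embryos, edgeR called 7 lower and 3 higher, against 5.94% and 6.91%. All cKO embryos lay below all Ctrl embryos for 33 of them and above for 20, against 28.0% and 29.2% of all tested genes. In dcKO, edgeR called 0, and DESeq2 called 4 lower and 1 higher, against 3.79% and 4.66% of all tested genes. Without the library labelled dcKO 2, edgeR called 6 lower and 5 higher, against 2.56% and 7.16%, and 22 lower and 2 higher without dcKO 3, against 15.3% and 8.46%. The libraries were apart from Ctrl for 18 lower and 14 higher, against 11.2% and 15.6%. The medians of the log2 fold changes were -0.12 in cKO and -0.16 in dcKO.

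Single values in these lists are edgeR's log2 fold changes. DESeq2's calls in them stand beside its shares over all tested genes. These were 3.87% lower and 4.94% higher in cKO, and 3.79% and 4.66% in dcKO. Of 12 tested isotypes, 7 had all cKO embryos below Ctrl and 3 all above (28.0% and 29.2% of all tested genes), and DESeq2 called 0 in cKO and 1 lower in dcKO (Tuba4a, named after its value was seen). Tubb2a had a log2 fold change of -1.25 in cKO and -1.06 in dcKO, and the γ-tubulin gene Tubg2 of 1.11 and 1.21. Neither passed on all 9 embryos, and both were called in cKO with only 6 (edgeR adjusted p = 0.00616 for Tubb2a and 0.00649 for Tubg2). Tubg2 read 1.95 to 2.48 CPM in Ctrl and 3.28, 1.38 and 10.35 CPM in dcKO 1, 2 and 3, and its value was 0.11 without dcKO 3 and 1.66 without the library labelled dcKO 2, where DESeq2 called it higher (adjusted p = 0.00583). Tubb2a was -2.65 without dcKO 3 and -0.65 without the library labelled dcKO 2. Of the 2 other stathmins, Stmn4 was called higher by DESeq2 in cKO (1.22 ± 0.35, DESeq2 adjusted p = 0.0137) and not in dcKO (0.94 ± 0.35, DESeq2 adjusted p = 0.0692) unless the library labelled dcKO 2 was left out (1.26, DESeq2 adjusted p = 0.000264), and Stmn3 stood at 0.06 and 0.13. In dcKO the sign of Stmn3 turned with the library left out, at 0.36 without the library labelled dcKO 2 and -0.36 without dcKO 3. On average Stmn4 read 24.4 CPM in Ctrl and 56.9 CPM in cKO.

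Among 17 other microtubule-associated proteins, 7 lay wholly below Ctrl in cKO and 5 above, against 28.0% and 29.2% of all tested genes. Mid1, a ubiquitin ligase bound to microtubules, was called lower by DESeq2 in both mutants (-1.08 and -1.10, with DESeq2 adjusted p-values of 0.00228 and 0.00167), and Map1s stood at -1.57 and -0.89, called in cKO with only 6 embryos (edgeR adjusted p = 0.00823) and in neither mutant on all 9 (in dcKO, -0.36 without the library labelled dcKO 2 and -3.43 without dcKO 3). Of 13 genes for tubulin folding and modification, DESeq2 called Vash1 lower and Ttll7 higher in both mutants. Of all tested genes, DESeq2 called 3.87% lower and 4.94% higher in cKO, and 3.79% and 4.66% in dcKO. Vash1 removes the C-terminal tyrosine of α-tubulin, and its log2 fold changes were -1.47 and -1.19. Ttll7 adds glutamates to β-tubulin, and its values were 1.47 and 1.63. Of 12 plus-end and severing proteins DESeq2 called 0 in either mutant, with Fign at 0.77 and 1.71 and Katna1, a katanin subunit, at 0.66 and 0.74. Fign read 1.36, 8.53 and 1.04 CPM in dcKO 1, 2 and 3, and was at 0.11 without the library labelled dcKO 2. Of 11 growth cone and collapsin response mediator genes it called Marcksl1 lower in cKO (-1.15, DESeq2 adjusted p = 0.00205) and 0 in dcKO, though Marcksl1 was called lower there without the library labelled dcKO 2 (-1.06, DESeq2 adjusted p = 2.59e-05), and Dpysl4 stood at -1.01 and -0.90, called in cKO with only 6 embryos (edgeR adjusted p = 0.000786). In dcKO Dpysl4 was -0.66 without the library labelled dcKO 2 and -1.86 without dcKO 3. Of 12 tested motors for axonal transport it called Kif21b lower in both (-1.18 and -1.42), while Kif1a stood at -0.81 and -0.82. Neurofilament and other intermediate filament genes were 3 of 5 tested, with Nefl at 0.90 and 0.98 and Ina at -0.49 and -0.39, and DESeq2 called 0 on all 9 embryos. Without the library labelled dcKO 2 it called Nefl higher in dcKO (1.21, DESeq2 adjusted p = 0.0228).

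Markers of cell types were read beside these values. The summed level of 10 neuron markers was 558 to 770 CPM in Ctrl, 495 to 768 CPM in cKO and 469 to 793 CPM in dcKO, so that the sums overlapped. In cKO, 4 of the 10 lay wholly below Ctrl (Bcl11b, Elavl3, Elavl4 and Rbfox3) and 1 above (Syt1), against 28.0% and 29.2% of all tested genes, and Neurod6, which did not lie wholly above, averaged 114 CPM in Ctrl and 201 CPM in cKO. Syt1, a synaptic vesicle protein, was called higher by DESeq2 in both mutants (1.79 and 1.76), and Elavl3, a neuronal RNA-binding protein, lower in both (-1.05 and -1.05). The library labelled dcKO 2 was highest in the intermediate progenitor list (676 CPM, against 389 to 487 CPM in Ctrl). The radial glia list was 2968 to 3395 CPM in Ctrl and 2905 to 3454 CPM over both mutants. In cKO, 5 of its 9 genes lay wholly below Ctrl (Pax6, Nes, Hes1, Hes5 and Emx2) and 1 above (Vim), against 28.0% and 29.2% of all tested genes. Nes averaged 1049 CPM in Ctrl and 654 CPM in cKO, Vim 1329 and 1819 CPM, and DESeq2 called Hes5, a Notch target, lower in cKO (-1.83, DESeq2 adjusted p = 0.00543). Subpallial neuron markers summed to 1.24 to 1.51 CPM in Ctrl, 2.26 to 4.54 CPM in cKO and 1.78 to 6.21 CPM in dcKO, highest in the library labelled dcKO 2, with 6 of 7 below the filter. Lhx6 made up most of this sum in every library except that one, and averaged 1.03 CPM in Ctrl and 2.93 CPM in cKO. Dlx1 and Dlx6 were at 0 in every cKO embryo. In the library labelled dcKO 2, Lhx6 was at 0.69 CPM, and Dlx2 and Gad2 stood at 2.25 and 2.04 CPM. The Cajal-Retzius cell list was 120 to 153 CPM in Ctrl, 120 to 182 CPM in cKO and 87.1 to 108 CPM in dcKO. Reln made up most of it (88.9 CPM in Ctrl and 52.5 CPM in dcKO on average, -0.76), while Trp73 was at -0.31, Calb2 at 0.21, Ebf3 at 0.19 and Lhx5 at 1.10 in dcKO. The endothelial list was 116 to 133 CPM in dcKO against 189 to 247 CPM in Ctrl, the erythroid list 3808 to 5423 CPM against 6019 to 8809 CPM, the microglial list 12.3 to 25.2 CPM against 28.2 to 35.4 CPM, and the meningeal list 153 to 235 CPM against 349 to 392 CPM. In cKO the meningeal list was 201 to 337 CPM, also below Ctrl, and the other 3 overlapped Ctrl. The meningeal sums rest on 2 collagens, Col1a1 (-1.28 in cKO and -1.86 in dcKO) and Col1a2 (-0.64 and -1.31), the only ones of its 5 genes wholly below Ctrl in either mutant, while Dcn was at 0.00 and -0.33, Lum at 0.19 and -0.05 and Foxc1 at 0.32 and 0.09. None of the listed markers was at 0 in every embryo. Their part in the differences of the 10 genes was not tested.

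Across the 9 embryos, the tested genes whose log2 CPM most resembled the mean of the 10 were Scrt2 (Pearson r = 0.99), Slc22a23 (0.99), Mycl (0.99), Nol4l (0.98) and Ncan (0.98). Scrt2, a transcriptional repressor of newborn neurons, read 85.1, 74.0 and 58.6 CPM in Ctrl, 36.7, 34.5 and 20.2 CPM in cKO, and 10.6, 43.7 and 29.0 CPM in dcKO. Within the list, Tubb3 and Tubb2b followed each other most closely (r = 0.99), then Stmn2 and Gap43 (0.94) and Dcx and Map1b (0.93), while Tubb3 and Map2 went apart (-0.32). These correlations describe 9 embryos of 3 genotypes, in which every gene is read from the same 9 libraries, and carry no test.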

How the data were processed

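The authors deposited raw counts, whole numbers of reads that featureCounts assigned to each gene. Libraries were made with the TruSeq Stranded mRNA kit, sequenced as 150 bp paired ends on a NovaSeq, trimmed with Cutadapt and aligned to mm39 with STAR. Versions, annotation, strand setting and handling of multiply mapped reads are not given in the sources used here.

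Counts of all 9 embryos were tested with edgeR 4.0.16 in R 4.3.3 (TMM, quasi-likelihood, one model, no covariates) over the 13680 genes above 10 reads in each embryo, with Benjamini-Hochberg adjustment. Genes were called when the adjusted p was under 0.05 and the log2 fold change beyond 1 in size. DESeq2 1.42.0 and limma 3.58.1 were alternatives. An edgeR SE is the size of the log2 fold change divided by the square root of F. A DESeq2 SE is the one that tool reports. Intervals are 1.96 SE. Each embryo is a separate animal. Counting error is small at 373 or more reads per gene and embryo. Lengths, GC content (13561 of the tested genes) and sequences came from GENCODE M21 on GRCm38, matched by Ensembl identifier, since no mm39 annotation was used. No promoter or protein sequence is shown.

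The members and lists were chosen with earlier results of these data known. The text names all 10 members, the 2 genes of each wider list with the largest mean change over both mutants, the 5 genes most like the members, and the targeted genes, plus markers. Alternatives were RLE factors, filterByExpr, no filter, DESeq2, limma voom with sample weights, a fit of the 6 embryos of 1 comparison, leaving out each embryo, the replicate number as a block, a GC correction (loess span 0.3) with and without it, embryos whose codes share a number, and other lengths and scalings. DESeq2 with embryos left out and with the block, and wider-list genes without a dcKO library, were added after seeing the data. edgeR, DESeq2, limma and the GC correction were tested on simulated data with known changes for cKO against Ctrl. Coding sequences of some members are not reported here.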

Additional observations from a re-analysis of the deposited data

How the results depend on the processing

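On all 9 embryos, edgeR called 0 of the 10 genes lower in cKO. The number was 1 with no filter (1.59% of all genes tested in that fit), 1 with DESeq2 (3.87%) and 1 with a GC correction (1.50%). It was 2 with only the 6 embryos compared (5.94%) and 3 with limma voom and sample quality weights (6.66%). It was from 0 to 2 when 1 embryo was left out: Stmn1 without dcKO 1 or the library labelled dcKO 2, and Stmn1 and Tubb2b without dcKO 3. In dcKO it was 1 with no filter (1.41% of all genes tested in that fit), 1 with DESeq2 (3.79%) and 0 with a GC correction (0.361%). It was 5 with limma (15.9%, against 6.66% in cKO), and from 0 to 3 when 1 embryo was left out. Limma gave weights of 0.125 and 0.112 to the library labelled dcKO 2 and to dcKO 3, against 1.19 to 4.09 for the other embryos. No setting called a member higher, or called any between dcKO and cKO. The median log2 fold change of the 10 genes in cKO was -0.33 to -0.61 over fits without 1 embryo, and -0.82 and -0.51 for the pairs cKO 3 with Ctrl 2 and cKO 2 with Ctrl 1, whose embryo codes share a number. For dcKO 3 with Ctrl 3 it was -0.31, with Tubb3 at 0.38 and Tubb2b at 0.14. In dcKO the median was -0.14 to -0.80 over fits without 1 embryo. Among those fits it was lowest in size without dcKO 1 and highest without the library labelled dcKO 2.

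The signs of some genes turned, and the causes were not tested. The log2 fold change of Stmn2 in cKO was -0.030 with filterByExpr and -0.029 with no filter, -0.15 with the GC correction and -0.16 with replicate block and GC correction, and -0.071 to 0.20 over fits without 1 embryo. That of Gap43 in cKO was -0.35 to 0.034 over the same fits. That of Dcx in dcKO was -0.061 with filterByExpr, -0.076 with no filter, -0.023 with only 6 embryos, -0.81 with limma, -0.63 with the GC correction and -0.74 with the block and GC correction, and -1.02 to 0.39 over fits without 1 embryo. Map2 in dcKO was -0.057 with the GC correction, -0.10 with the block as well, and -0.22 to 0.42 over fits without 1 embryo. Between dcKO and cKO, where 8 of the 10 turned sign, the values over fits without 1 embryo were -0.97 to 0.36 for Tubb3, -0.68 to 0.43 for Tubb2b, -0.15 to 0.16 for Tuba1a, -0.45 to 0.97 for Dcx, -0.42 to 0.32 for Map1b, -0.077 to 0.56 for Map2, -0.041 to 0.65 for Stmn1 and -0.52 to 0.027 for Gap43. There limma gave -0.97 for Tubb2b, -0.27 for Dcx and -0.29 for Map1b. The GC correction gave 0.10 for Tuba1a and -0.012 for Map1b, and with the block 0.073 and -0.045, and -0.026 for Tubb2b. Tubb2b was -0.071 with the replicate block. Of the wider list, edgeR called 0 to 7 lower and 0 to 3 higher in cKO, and 0 to 22 lower and 0 to 5 higher in dcKO, when 1 embryo was left out.

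Embryos with the same replicate number did not deviate together (mean r = -0.17 over 9 pairs, against 0.08 over 18 pairs with unlike numbers). Deviations were taken from each genotype's own mean, which ties these values to each other. They therefore cannot decide whether such embryos share more than a replicate number. Ctrl 3 and dcKO 3 also share a number in their embryo codes. With the replicate number as a block (replicate block), edgeR called 0 members in each comparison, the median log2 fold change was -0.50 in cKO and -0.41 in dcKO, and that of Dcx in dcKO was -0.24.

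Shares depend on the length used. Per kb of the longest coding transcript, Tuba1a was 44.7% of α-tubulin in Ctrl and 51.0% in cKO, Tubb3 9.25% and 8.67% of β-tubulin, Tubb2b 26.1% and 22.5%, and Stmn2 3.72% of Stmn1 in Ctrl, 7.86% in cKO and 5.01% in dcKO. By reads without length, Tuba1a was 43.8% and 49.96% in Ctrl and cKO, Tubb3 7.56%, 7.05% and 6.54% and Tubb2b 24.9%, 21.4% and 22.1% in Ctrl, cKO and dcKO, and Stmn2 7.27%, 15.4% and 9.81% of Stmn1. In each the order of Ctrl and cKO was that of the exon-based shares. Total counts without TMM left the shares as they were.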
